A study of Mus musculus with 14 samples.

Results

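The CXC and CX3C chemokines named here are Cxcl1, Cxcl9, Cxcl10, Cxcl12, Cxcl14, Cxcl16 and Cx3cl1, 7 of the 49315 genes in the table of counts. The rule that picks them is a list of gene names. Their transcripts were measured by RNA-seq in the left ventricle of male mice, 5 weeks after surgery at an age of 10 to 12 weeks. WT mice carried the normal Hcn4 gene, and HCN4F mice carried a knock-in in which a tyrosine of the pacemaker channel HCN4 is replaced by phenylalanine, a gain-of-function change that is present in every cell of the animal and is not driven by a Cre line. Counts per gene do not show this exchange, so they give no check of the genotype labels. The aorta was narrowed in the TAC groups (transverse aortic constriction, which puts the left ventricle under pressure overload) and not narrowed in the Sham groups. The groups were WT-Sham (n = 4), HCN4F-Sham (n = 4), WT-TAC (n = 2, replicates 2 and 3) and HCN4F-TAC (n = 4). The study describes 4 mice in each group, so every WT-TAC value here rests on 2 of that group's 4 mice, and the other 2 were not analysed here.

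Chemokines are small secreted or membrane-bound proteins that guide white blood cells and other cells along gradients through G protein-coupled receptors. CXC and CX3C ligands are named for the spacing of their conserved cysteines. In the heart they are best known for recruiting neutrophils (Cxcl1), T cells (Cxcl9, Cxcl10 and Cxcl16), progenitor cells (Cxcl12) and monocytes (Cx3cl1). Cxcl16 and Cx3cl1 are made as transmembrane proteins and shed by proteases.

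The values are counts of reads per gene, given here as CPM, counts scaled to library size with TMM factors. Libraries held 22309914 to 35210939 such reads. Cardiomyocyte markers (Myh6, Actc1, Tnnt2, Tnni3, Ryr2 and Pln) summed to 44938 to 63033 CPM per library. The sum of 5 atrial markers (Myl4, Myl7, Sln, Bmp10 and Dkk3) was 9.50, 55.3, 6.32 and 18.4 CPM in HCN4F-TAC replicates 1 to 4. It was 3.46 to 7.61 CPM in HCN4F-Sham, 3.48 to 4.03 CPM in WT-Sham and 4.89 to 5.09 CPM in WT-TAC. Each gene given below with an adjusted p under 0.05 for TAC against Sham in HCN4F is also given without HCN4F-TAC replicate 2. In bulk tissue, fewer cells of a type and less RNA per cell cannot be told apart.

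All 7 genes had enough reads for a test, together with 15292 genes in all. None of the 7 met the call used here in any of the 4 comparisons. The call asks for an adjusted p under 0.05 in edgeR's quasi-likelihood test and for a log2 fold change larger than 1 in size. Of all tested genes, 2.75% met it for TAC against Sham in HCN4F, 0.706% for TAC against Sham in WT, 0.209% between the Sham groups and 0.0719% between the TAC groups. DESeq2 on all groups called 1 of the 7, Cxcl14 between the TAC groups. In edgeR an unadjusted p under 0.05 was held by 4 of the 7 for TAC against Sham in HCN4F, 2 in WT, 2 between the Sham groups and 3 between the TAC groups, against 28.3%, 22.04%, 15.2% and 12.5% of all tested genes in the same order. Without a demand on fold size, 3 differences passed the adjusted p-value. Cxcl14 was lower after TAC in WT, and in HCN4F Cx3cl1 was higher and Cxcl12 lower after TAC. These are 1 of 7 genes against 4.54% of all genes in WT and 2 of 7 against 13.6% in HCN4F. Between genotypes 0 of 7 passed the adjusted p-value, against 0.471% of all genes in Sham and 0.111% after TAC.

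The 7 genes lie on 5 chromosomes of assembly GRCm38 and none lies on chromosome 9, where Hcn4 is found. Cxcl1 (chr5:90891241-90893115, plus strand), Cxcl9 (chr5:92321347-92328079, minus strand) and Cxcl10 (chr5:92346638-92348889, minus strand) share chromosome 5, with 18558 bases between Cxcl9 and Cxcl10. Cxcl12 (chr6:117168535-117181367, plus strand), Cx3cl1 (chr8:94772009-94782427, plus strand), Cxcl16 (chr11:70453983-70459984, minus strand) and Cxcl14 (chr13:56288643-56296551, minus strand) lie apart. Cxcl10 lies inside the span of Art3, which is on the opposite strand and was counted at 134 to 207 CPM, and the 5′ end of Cxcl16 overlaps Zmynd15 on the opposite strand, counted at 1.58 to 3.14 CPM. Whether the counting used strand is not given in the sources used here, so reads of these overlapping pairs may not be separable.

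The DNA upstream of 4 of the genes is shown because these 4 hold the largest fold differences (Cxcl1, Cxcl10 and Cxcl14) and the highest level (Cxcl12) described here. Each sequence is the 250 bases before the RefSeq transcript start on GRCm38.p6, read 5′ to 3′ on the gene's strand. A RefSeq window was matched for 6 of the 7 genes, and Cxcl16 had none. Capitals mark matches to short binding motifs, searched on both strands of the 250 bases.
Cxcl1, chr5:90890995-90891244, plus strand: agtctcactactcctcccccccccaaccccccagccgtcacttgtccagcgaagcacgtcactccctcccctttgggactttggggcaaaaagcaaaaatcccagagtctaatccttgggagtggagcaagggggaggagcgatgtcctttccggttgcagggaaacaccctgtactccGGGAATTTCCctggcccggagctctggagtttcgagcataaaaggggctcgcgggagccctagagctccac
Cxcl10, chr5:92348890-92349139, minus strand: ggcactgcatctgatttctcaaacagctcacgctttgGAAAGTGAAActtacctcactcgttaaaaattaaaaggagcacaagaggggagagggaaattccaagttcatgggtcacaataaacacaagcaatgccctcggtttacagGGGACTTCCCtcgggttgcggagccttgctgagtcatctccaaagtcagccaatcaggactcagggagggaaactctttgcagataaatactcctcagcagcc
Cxcl14, chr13:56296552-56296801, minus strand: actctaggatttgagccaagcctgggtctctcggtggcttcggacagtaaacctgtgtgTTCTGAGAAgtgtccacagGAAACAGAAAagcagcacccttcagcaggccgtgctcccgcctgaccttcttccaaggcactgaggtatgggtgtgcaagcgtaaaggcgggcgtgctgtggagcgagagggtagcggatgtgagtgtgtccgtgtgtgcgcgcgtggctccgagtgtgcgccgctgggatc
Cxcl12, chr6:117168285-117168534, plus strand: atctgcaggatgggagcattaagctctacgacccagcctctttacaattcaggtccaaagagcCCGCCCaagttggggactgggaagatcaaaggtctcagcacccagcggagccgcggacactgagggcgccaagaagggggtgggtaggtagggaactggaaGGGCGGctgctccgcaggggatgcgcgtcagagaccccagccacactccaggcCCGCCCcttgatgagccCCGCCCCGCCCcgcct

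The capitals in the Cxcl1 window are a match to the NF-kappaB motif (GGGA, any base, TT, any base, CC), 71 to 62 bases upstream of the start. The Cxcl10 window holds a match to the interferon-stimulated response element (GAAA, any 2 bases, GAAA), 213 to 204 bases upstream, and an NF-kappaB match 103 to 94 bases upstream. The Cxcl14 window holds a match to the gamma-interferon activation site TTCNNNGAA, 191 to 183 bases upstream, and one to the response element, 172 to 163 bases upstream. In the Cxcl12 window the capitals are 5 GC boxes (GGGCGG, or CCGCCC on the other strand), of which the last 2 overlap by 1 base. Of 32851 windows of the same length across all genes, 0.98% held the NF-kappaB letters, 2.98% the response element, 7.02% the activation site and 32.7% a GC box. These matches describe letters in the windows and no binding was measured.

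Per kilobase of exons, the scale on which levels of different genes can be compared, the mean over the 14 libraries was 22.9 ± 5.86 CPM per kb (SD) for Cxcl12 and 20.3 ± 6.14 for Cxcl14. It was 2.96 ± 0.618 for Cx3cl1, 2.38 ± 0.316 for Cxcl16 and 1.12 ± 0.318 for Cxcl9. The lowest levels were those of Cxcl1, at 0.592 ± 0.341 CPM per kb, and Cxcl10, at 0.200 ± 0.135. Cxcl12 and Cxcl14, both expressed constitutively in many tissues, thus stood above the other 5 genes, and the lowest Cxcl14 library (9.70) lay above the highest Cx3cl1 library (4.33). Cxcl16 also lay above Cxcl9 in all 14 libraries without overlap. The other neighbours in this order had overlapping ranges over all libraries. Cxcl12 exceeded Cxcl14 in 10 of 14 libraries, Cx3cl1 exceeded Cxcl16 in 13, Cxcl9 exceeded Cxcl1 in 12 and Cxcl1 exceeded Cxcl10 in 14.

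**Figure D1:**
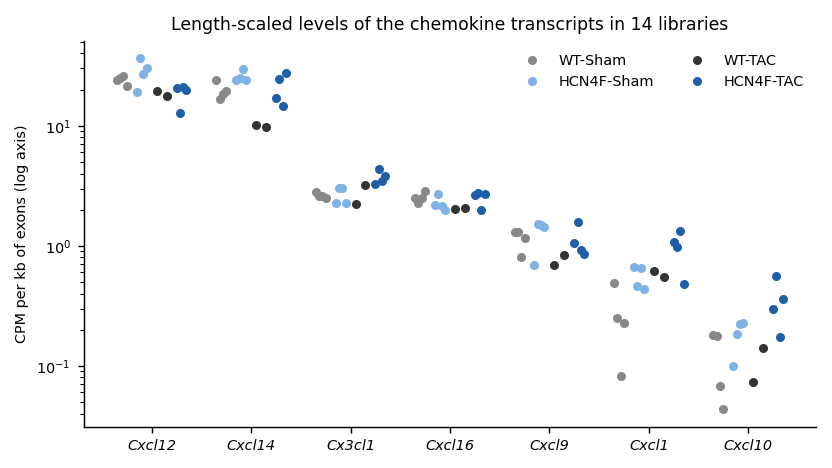
Level of each chemokine transcript in CPM per kb of exons on a log axis, with 1 point per library and colours for the 4 groups. Cxcl12 and Cxcl14 sit near 20 CPM per kb and above the other 5 genes, and Cxcl10 is lowest, at 0.0435 to 0.556 CPM per kb.

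Cxcl1, a mouse ligand of Cxcr2 that recruits neutrophils, was low in every group. It measured 0.924, 0.472, 0.153 and 0.425 CPM in the WT-Sham libraries, from 4 to 25 reads each, and 1.15 and 1.03 CPM in WT-TAC. In HCN4F-Sham it measured 1.24, 0.867, 1.23 and 0.815 CPM, and in HCN4F-TAC 2.03, 1.84, 2.47 and 0.895 CPM. Both WT-TAC libraries were above all WT-Sham libraries, while HCN4F-TAC replicate 4 lay among the HCN4F-Sham values. The log2 fold change of Cxcl1 for TAC against Sham was 1.13 in WT (SE 0.46, edgeR adjusted p = 0.159) and 0.81 in HCN4F (SE 0.34, adjusted p = 0.124). Without HCN4F-TAC replicate 4 the HCN4F value was 1.02 with an edgeR adjusted p of 0.0476 and met the call. With 1 library left out, the edgeR adjusted p was under 0.05 only in this 1 of 8 fits, with a range of 0.0476 to 0.262. Between genotypes, Cxcl1 was higher in HCN4F by 1.06 on the log2 scale in Sham (SE 0.39, edgeR adjusted p = 0.215) and by 0.74 after TAC (SE 0.41, adjusted p = 0.483). The ranges overlapped in both of these comparisons.

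Neutrophil markers were lowest in WT-Sham, as Cxcl1 was. The summed level of S100a8, S100a9, Retnlg, Csf3r and Ly6g was 0.535 to 1.23 CPM in WT-Sham, 1.83 to 2.75 CPM in HCN4F-Sham, 2.23 to 3.41 CPM in WT-TAC and 1.70 to 5.16 CPM in HCN4F-TAC. In each library 1 to 3 of the 5 markers were at 0, and 4 of the 5 were tested. S100a8 and S100a9, which form calprotectin, met the call for TAC against Sham in WT, at log2 fold changes of 2.73 (SE 0.62, edgeR adjusted p = 0.0248) and 2.91 (SE 0.75, adjusted p = 0.0409). With 1 library left out, the edgeR adjusted p was under 0.05 in 2 of 6 fits for S100a8, with a range of 0.0284 to 0.155, and in 1 of 6 for S100a9, with a range of 0.0454 to 0.213. In HCN4F their TAC differences were 0.87 (SE 0.40, edgeR adjusted p = 0.164) and 0.95 (SE 0.49, adjusted p = 0.229). Over the 14 libraries, which share these 4 groups, Cxcl1 and this sum had a Pearson r of 0.84, given as a description. The part of these markers in the Cxcl1 values was not tested. Cxcr2, the receptor of Cxcl1 on neutrophils, was near the detection limit, at 0 to 0.098 CPM in WT-Sham and at most 0.636 CPM in the other groups. Its log2 fold change for TAC against Sham was 2.16 in WT (SE 0.75, edgeR adjusted p = 0.101) and 1.22 in HCN4F (SE 0.47, adjusted p = 0.0949), and HCN4F was higher than WT in Sham by 1.76 (SE 0.68, adjusted p = 0.235).

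Cxcl9 and Cxcl10 are induced by interferons and attract activated T cells through Cxcr3. Cxcl10 measured 0.407, 0.399, 0.153 and 0.098 CPM in WT-Sham, and 0.164 and 0.315 CPM in WT-TAC. In HCN4F-Sham it measured 0.226, 0.411, 0.506 and 0.513 CPM, and in HCN4F-TAC 0.664, 1.25, 0.389 and 0.814 CPM. These values come from 3 to 38 reads per library. All 4 HCN4F-TAC libraries were above both WT-TAC libraries. The difference between the TAC groups was 1.64 on the log2 scale (95% confidence interval 0.46 to 2.81, edgeR adjusted p = 0.235), the largest estimate among the 7 genes and 4 comparisons. With 1 library left out it ranged from 1.27 (without HCN4F-TAC replicate 2, adjusted p = 0.490) to 2.22 (without WT-TAC replicate 3, adjusted p = 0.367), and the edgeR adjusted p from 0.0676 to 0.802. Over the 14 libraries of these groups, Cxcl10 had a Pearson r of -0.82 with the cardiomyocyte sum, 0.79 with the atrial sum and 0.73 with a sum of 5 fibroblast markers, and their part in the Cxcl10 values was not tested. In HCN4F, Cxcl10 after TAC exceeded Sham by 0.90 (SE 0.41, edgeR adjusted p = 0.160), and by 0.55 (adjusted p = 0.472) without HCN4F-TAC replicate 2, its highest library. In WT the Cxcl10 TAC difference was -0.07 (SE 0.63, edgeR adjusted p = 0.968) and in Sham HCN4F exceeded WT by 0.67 (SE 0.48, adjusted p = 0.532).

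Cxcl9 measured 3.92, 3.92, 2.45 and 3.50 CPM in WT-Sham, 2.10 and 2.55 CPM in WT-TAC, 2.07, 4.56, 4.48 and 4.32 CPM in HCN4F-Sham, and 3.15, 4.74, 2.79 and 2.56 CPM in HCN4F-TAC. The TAC and Sham ranges overlapped in both genotypes, and the lowest HCN4F-TAC library stood just above the higher WT-TAC library. The log2 fold change of Cxcl9 for TAC against Sham was -0.56 in WT (SE 0.31, edgeR adjusted p = 0.308) and -0.21 in HCN4F (SE 0.24, adjusted p = 0.609). The genotype difference was 0.16 in Sham (SE 0.24, edgeR adjusted p = 0.793) and 0.51 after TAC (SE 0.31, adjusted p = 0.527). Over the 14 libraries, which share 4 groups, the Pearson r between Cxcl9 and Cxcl10 was 0.49. Their receptor Cxcr3 stayed under the filter on low counts, with at most 10 reads in a library. Ifng, which encodes the interferon gamma that induces both ligands, had at most 1 read in a library.

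Cxcl12 binds Cxcr4 and the scavenging receptor Ackr3 and is made by stromal and endothelial cells. It measured 198, 203, 213 and 176 CPM in WT-Sham and 158 and 146 CPM in WT-TAC. In HCN4F-Sham it measured 155, 298, 221 and 247 CPM, and in HCN4F-TAC 170.2, 104, 172 and 162 CPM. Both WT-TAC libraries were below all WT-Sham libraries, whereas HCN4F-Sham replicate 1 lay below 3 of the HCN4F-TAC libraries. In HCN4F, the TAC difference of Cxcl12 was -0.60 on the log2 scale (SE 0.18, edgeR adjusted p = 0.0404), or 0.660 times its Sham level. Leaving out 1 library in turn, the edgeR adjusted p was under 0.05 in 2 of 8 fits (without HCN4F-Sham replicate 1 or HCN4F-TAC replicate 3) and ranged from 0.0054 to 0.118, with log2 fold changes of -0.75 to -0.45. Without HCN4F-TAC replicate 2, the lowest library, the value was -0.46 with an edgeR adjusted p of 0.0911. In WT the difference was -0.38 (SE 0.22, edgeR adjusted p = 0.341), and it passed the adjusted p-value when only the WT groups were fitted, at 0.0155 in edgeR and 0.00309 in DESeq2. Endothelial markers (Pecam1, Cdh5, Tie1, Kdr and Emcn) summed to 626, 1166, 877 and 984 CPM in HCN4F-Sham replicates 1 to 4, to 862, 830.3, 898 and 835 CPM in HCN4F-TAC, to 901, 782, 765 and 811 CPM in WT-Sham and to 725 and 935 CPM in WT-TAC, with none at 0. The order of these sums was that of Cxcl12 in HCN4F-Sham and HCN4F-TAC, but not in WT-Sham, and in WT-TAC the library with the higher sum had the lower Cxcl12. Their sum had a Pearson r of 0.51 with Cxcl12 over the 14 libraries, which share 4 groups. The r of Cxcl12 was -0.55 with the atrial sum and 0.44 with a sum of 5 mural markers. It was -0.53 with a sum of 4 platelet markers and -0.51 with a sum of 6 T and NK cell markers. The part of these markers in the Cxcl12 values was not tested. The Cxcl12 genotype difference was 0.22 in Sham (SE 0.18, edgeR adjusted p = 0.591), and after TAC it was 0.00 with a 95% confidence interval of -0.47 to 0.47 (adjusted p = 0.999).

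The 2 receptors of Cxcl12 had different values. Ackr3 was higher after TAC in HCN4F, at 64.7 ± 6.91 CPM against 48.6 ± 5.34 CPM (SD, n = 4 each), a log2 fold change of 0.41 (SE 0.10, edgeR adjusted p = 0.0110), and 0.43 (adjusted p = 0.0255) without HCN4F-TAC replicate 2. In WT it was 0.32 (SE 0.12, edgeR adjusted p = 0.126). Cxcr4, carried by many white blood cells, was 7.80 ± 0.727 CPM in WT-Sham and 4.28 ± 1.07 CPM in HCN4F-Sham (SD, n = 4 each), without overlap. That difference was -0.87 on the log2 scale (SE 0.20, edgeR adjusted p = 0.0618). The TAC difference of Cxcr4 was -0.77 in WT (SE 0.25, edgeR adjusted p = 0.0864) and 0.50 in HCN4F (SE 0.20, adjusted p = 0.113). The interaction of genotype and surgery for Cxcr4 was 1.27 (SE 0.32, edgeR adjusted p = 0.392). Without HCN4F-TAC replicate 3 the Cxcr4 interaction was 1.45 with an edgeR adjusted p of 0.0257, which passed. With any other HCN4F or WT-Sham library left out, its edgeR adjusted p was 0.212 to 0.640. The TAC difference in HCN4F was 0.68 (edgeR adjusted p = 0.0106) without HCN4F-TAC replicate 3 and 0.67 (adjusted p = 0.0402) without HCN4F-Sham replicate 3. With any other HCN4F library left out, that TAC difference had an edgeR adjusted p of 0.170 to 0.345.

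Cxcl14, a chemokine of epithelia and stroma whose receptor is not firmly settled, gave the smallest unadjusted p-values of the 7 genes. It measured 43.8, 30.3, 33.6 and 35.6 CPM in WT-Sham and 18.6 and 17.7 CPM in WT-TAC. In HCN4F-Sham it measured 43.8, 46.0, 53.8 and 43.6 CPM, and in HCN4F-TAC 30.9, 44.4, 26.6 and 50.2 CPM. The WT-TAC libraries were the lowest 2 of the 14, while HCN4F-TAC spread from below to within the Sham values. In WT, the TAC difference of Cxcl14 was -0.98 on the log2 scale (SE 0.22, edgeR adjusted p = 0.0303), 0.507 times the Sham level and just short of the fold size needed for a call. In HCN4F the TAC difference was -0.30 (SE 0.17, edgeR adjusted p = 0.275). After TAC, Cxcl14 was higher in HCN4F than in WT by 1.06 (95% confidence interval 0.58 to 1.54), a 2.09-fold difference that ranked 48th of all tested genes by p (edgeR adjusted p = 0.0976). The Sham difference between genotypes was 0.38 (SE 0.17, edgeR adjusted p = 0.308). The interaction of genotype and surgery, that is the TAC difference in HCN4F minus that in WT, was 0.68 (SE 0.28, edgeR adjusted p = 0.491).

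The calls on Cxcl14 depended on the tool and on single libraries. Between the TAC groups, DESeq2 on all groups called Cxcl14 at 1.05 with an adjusted p of 0.000311, and DESeq2 on the TAC groups alone at 1.06 with an adjusted p of 0.00123. edgeR called it without HCN4F-TAC replicate 3, at 1.20 with an adjusted p of 0.0033, and in the other 5 fits with 1 library left out the adjusted p lay above 0.05 and reached 0.525. Without HCN4F-TAC replicate 2 the edgeR value was 0.97 (adjusted p = 0.227). For TAC against Sham in WT, the edgeR adjusted p stayed under 0.05 in 2 of 6 such fits and ranged from 0.0365 to 0.269. Without WT-Sham replicate 2 or 3 the log2 fold change was -1.05 (edgeR adjusted p = 0.0365) or -1.01 (adjusted p = 0.0414), and Cxcl14 met the call. The WT-TAC group has 2 libraries, so its spread is taken to be like that of the other groups. Macrophage markers (Cd68, Adgre1, Csf1r, C1qa, Fcgr1 and Cd163) summed to 100.4 to 105 CPM in WT-TAC, 105 to 127 CPM in WT-Sham, 108 to 139 CPM in HCN4F-Sham and 98.7 to 158 CPM in HCN4F-TAC, with none at 0. Their sum had a Pearson r of 0.74 with Cxcl14 over the 14 libraries of these 4 groups. Their part in the Cxcl14 values was not tested.

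**Figure D2:**
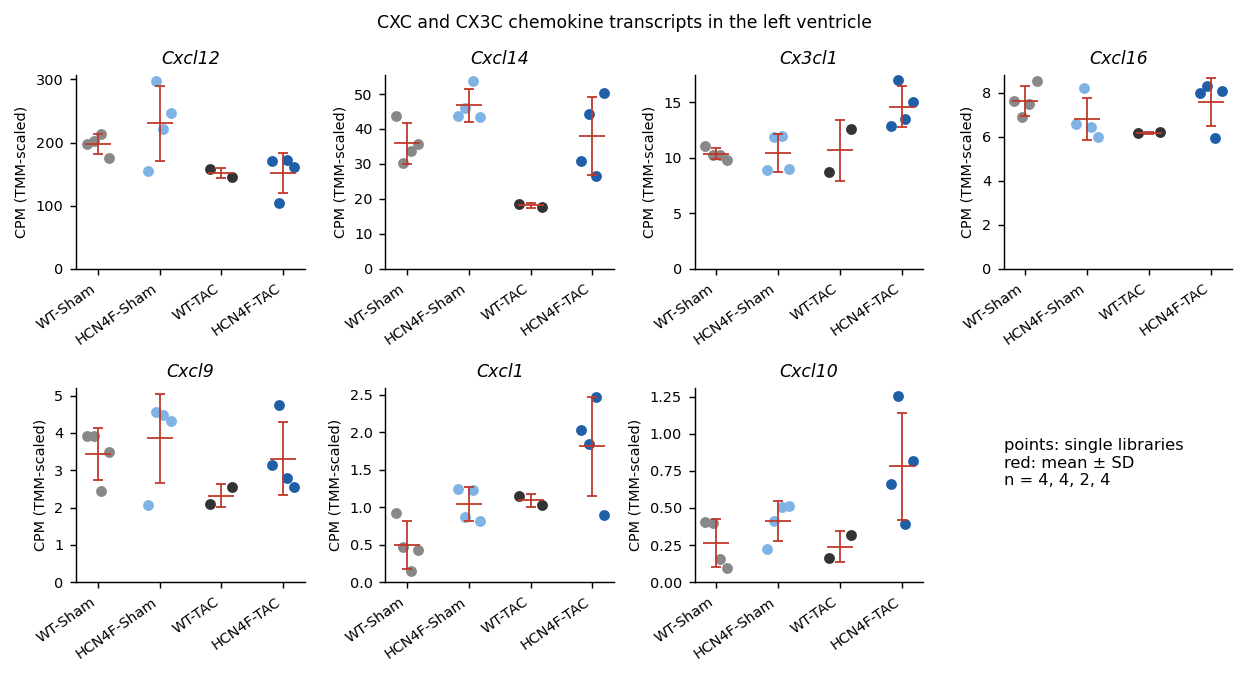
CPM of each chemokine transcript per library (points) with the mean ± SD of each group (red), from linear axes that start at 0. The WT-TAC libraries are lowest for Cxcl14, at 17.7 and 18.6 CPM, and the HCN4F-TAC libraries hold the highest Cx3cl1, Cxcl1 and Cxcl10 values.

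**Figure D3:**
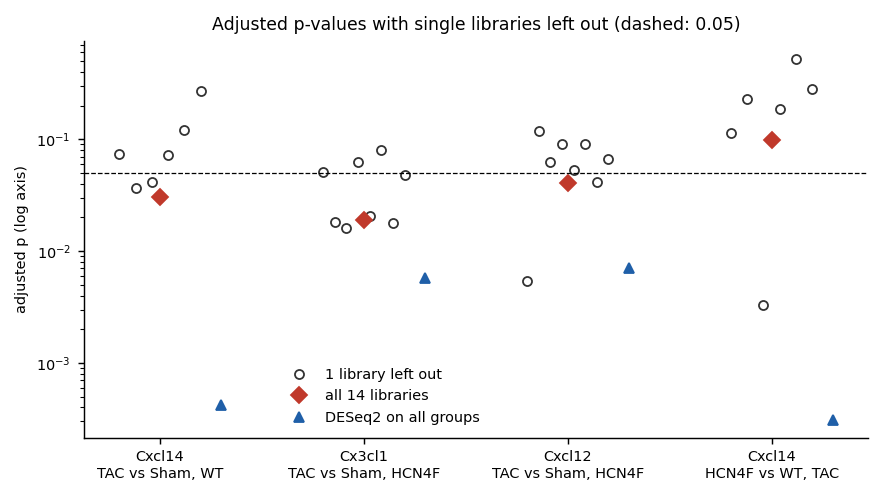
Adjusted p (log axis) of 4 results with all 14 libraries (red diamonds), with 1 library of the compared groups left out (open circles), both in edgeR, and in DESeq2 on all groups (blue triangles). Open circles fall on both sides of 0.05 in each result, and the DESeq2 values lie under it.

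Cx3cl1, or fractalkine, is held on the surface of endothelial and other cells and binds Cx3cr1 on monocytes and macrophages. It measured 11.0, 10.2, 10.3 and 9.83 CPM in WT-Sham and 8.71 and 12.6 CPM in WT-TAC. In HCN4F-Sham it measured 8.92, 11.8, 11.97 and 8.997 CPM, and in HCN4F-TAC 12.8, 17.0, 13.5 and 15.0 CPM. All 4 HCN4F-TAC libraries were above every other library. In HCN4F, Cx3cl1 was higher after TAC by 0.49 on the log2 scale (SE 0.13, edgeR adjusted p = 0.0191), a 1.40-fold difference. With 1 library left out in turn the value stayed between 0.40 and 0.55, and the edgeR adjusted p was under 0.05 in 5 of 8 fits. The adjusted p was 0.0803 when HCN4F-TAC replicate 2 was left out, and 0.0511 or 0.0621 when replicate 1 or 4 of HCN4F-Sham was. In WT the TAC difference was 0.05 (SE 0.16, edgeR adjusted p = 0.887) and in Sham the genotype difference was 0.01 (SE 0.13, adjusted p = 0.983). After TAC, Cx3cl1 was higher in HCN4F than in WT by 0.45 (SE 0.16, edgeR adjusted p = 0.259), with the lowest HCN4F-TAC library just above the higher WT-TAC library. The interaction was 0.44 (SE 0.21, edgeR adjusted p = 0.537). The difference between the TAC groups was 0.21 (edgeR adjusted p = 0.886) without WT-TAC replicate 2 and 0.74 (adjusted p = 0.211) without WT-TAC replicate 3, and the interaction was 0.20 (adjusted p = 0.907) and 0.74 (adjusted p = 0.541).

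Fibroblast markers (Pdgfra, Tcf21, Dcn, Lum and Col1a1) also reached their highest sums in HCN4F-TAC, at 529 to 823 CPM against 449 to 567 CPM in HCN4F-Sham, 463 to 476 CPM in WT-Sham and 418 to 479 CPM in WT-TAC, and none at 0. Most of that difference in HCN4F was Col1a1, a collagen gene, at 342 ± 88.4 CPM after TAC against 155 ± 35.5 CPM in Sham (SD, n = 4 each). The TAC difference in HCN4F was 1.14 on the log2 scale for Col1a1 (SE 0.18, edgeR adjusted p = 0.00125), which met the call, and 0.51 for Lum (SE 0.12, adjusted p = 0.0103). Without HCN4F-TAC replicate 2, the highest library for both, the edgeR value was 1.02 for Col1a1 (adjusted p = 0.00496), which still met the call, and 0.44 for Lum (adjusted p = 0.0417). The difference was 0.10 for Pdgfra, 0.10 for Dcn and 0.06 for Tcf21, with edgeR adjusted p-values of 0.500 to 0.786. The cardiomyocyte sum was lower in HCN4F-TAC, at 44938 to 51055 CPM, than in HCN4F-Sham (52551 to 56319 CPM), WT-TAC (56632 to 57039 CPM) and WT-Sham (60721 to 63033 CPM), without overlap. Myh6, its most abundant transcript, was 24091 CPM after TAC against 29103 CPM in Sham, a log2 difference of -0.27 (SE 0.08, edgeR adjusted p = 0.0358), whereas Actc1 was 10257 CPM against 8375 CPM, a difference of 0.29 (SE 0.09, adjusted p = 0.0359). Without HCN4F-TAC replicate 2, the lowest of its group for Myh6 and the highest for Actc1, neither passed the edgeR adjusted p-value, at -0.20 for Myh6 (adjusted p = 0.0835) and 0.24 for Actc1 (adjusted p = 0.110). With each of the 8 HCN4F libraries left out in turn, the edgeR adjusted p was under 0.05 in 5 fits for Myh6 and in 3 for Actc1. Actc1 was the only 1 of the 6 cardiomyocyte markers with a positive TAC difference in HCN4F, and their median was -0.24. At an edgeR adjusted p under 0.05, 3 of the 6 were lower and 1 higher, against 13.6% of all tested genes in either direction. In WT, 2 of the 6 were lower and 0 higher, against 4.54%. Over the 14 libraries of these groups, Cx3cl1 had a Pearson r of -0.79 with the cardiomyocyte sum, 0.76 with the fibroblast sum, 0.76 with the atrial sum and 0.33 with the endothelial sum. The part of these markers in the Cx3cl1 values was not tested. Cx3cr1, its receptor, measured 5.55 ± 0.393 CPM in HCN4F-TAC (SD, n = 4), 3.22 ± 1.37 CPM in HCN4F-Sham (n = 4) and 2.27 ± 1.04 CPM in WT-Sham (n = 4), and 1.77 and 2.58 CPM in WT-TAC. HCN4F-TAC lay above the other 3 groups without overlap. The log2 difference of Cx3cr1 between the TAC groups was 1.33 (SE 0.42, edgeR adjusted p = 0.216), and in HCN4F the TAC difference was 0.80 (SE 0.32, adjusted p = 0.117).

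Cxcl16, the transmembrane ligand of Cxcr6 and a scavenger receptor for oxidised lipids, varied least between libraries. It measured 7.61, 6.93, 7.49 and 8.56 CPM in WT-Sham, 6.16 and 6.21 CPM in WT-TAC, 6.59, 8.22, 6.47 and 6.01 CPM in HCN4F-Sham, and 8.004, 8.33, 5.97 and 8.10 CPM in HCN4F-TAC. Both WT-TAC libraries were below WT-Sham, and HCN4F-TAC replicate 3 lay below both of them. The log2 fold change of Cxcl16 for TAC against Sham was -0.31 in WT (SE 0.15, edgeR adjusted p = 0.252) and 0.16 in HCN4F (SE 0.12, adjusted p = 0.418). The genotype difference was -0.17 in Sham (SE 0.12, edgeR adjusted p = 0.531) and 0.30 after TAC (SE 0.15, adjusted p = 0.441). The interaction of 0.47 (SE 0.20) had an edgeR adjusted p of 0.491. Cxcr6 stayed at or under 0.895 CPM, and its log2 differences had edgeR adjusted p-values of 0.303 and above in the 4 comparisons.

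Of the 5 proteases listed as shedding or trimming chemokines, 0 were called, where 0.0719% to 2.75% of all tested genes were called in the 4 comparisons. Adam17, which sheds Cx3cl1 and Cxcl16, was higher after TAC in HCN4F by 0.23 (SE 0.07, edgeR adjusted p = 0.0289) and in WT by 0.27 (SE 0.08, adjusted p = 0.0613). Without HCN4F-TAC replicate 2 the Adam17 value in HCN4F was 0.20 with an edgeR adjusted p of 0.0943, and the adjusted p was also above 0.05 without HCN4F-TAC replicate 4 (0.0817) or HCN4F-Sham replicate 4 (0.0637). Mmp2, which trims Cxcl12 and Cx3cl1, was higher after TAC in HCN4F by 0.53 (SE 0.15, edgeR adjusted p = 0.0267), and in WT the difference was -0.01 (SE 0.18, adjusted p = 0.981). Without HCN4F-TAC replicate 2, its highest library at 98.6 CPM, the Mmp2 value in HCN4F was 0.36 with an edgeR adjusted p of 0.0810, and without HCN4F-TAC replicate 4 or HCN4F-Sham replicate 1, 3 or 4 the adjusted p was 0.0570 to 0.0715. Adam10, the other main sheddase, was higher by 0.17 in HCN4F (SE 0.08, edgeR adjusted p = 0.158) and by 0.27 in WT (SE 0.09, adjusted p = 0.108). Across 42 other genes of the pathway (10 further ligands, 10 receptors, 5 proteases, 7 genes of the interferon gamma route and 10 of the NF-kappaB route), 31 were tested and 0 were called in either direction in each of the 4 comparisons in edgeR. The shares of all tested genes called were the same 0.0719% to 2.75%. At an unadjusted p under 0.05 there were 10 for TAC against Sham in HCN4F, 6 in WT, 6 between the Sham groups and 7 between the TAC groups of the 31, against the same 28.3%, 22.04%, 15.2% and 12.5% of all tested genes. DESeq2 on all groups called 1, Cx3cr1 between the TAC groups. For TAC against Sham in HCN4F, 9 of the 10 NF-kappaB route genes had a positive log2 fold change with a median of 0.20, and in WT 8 of 10 with a median of 0.19, where 48.9% and 46.5% of all tested genes were positive. None of the 10 passed the edgeR adjusted p-value in either genotype. Ackr3, Adam17 and Mmp2 were the 3 that passed the adjusted p-value alone for TAC against Sham in HCN4F, 3 of 31 against 13.6% of all tested genes. The pathway genes named here were picked as receptors or proteases of the 7 chemokines, or after their values were seen.

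Of the 7 chemokines, 4 were higher and 3 lower for TAC against Sham in HCN4F, with a median log2 fold change of 0.16 against -0.01 over all tested genes. In WT, 2 were higher and 5 lower, with a median of -0.31 against -0.02. Between the Sham groups, 6 were higher in HCN4F, with a median of 0.22 against 0.00. Between the TAC groups all 7 estimates were positive, Cxcl12 at 0.00 included, with a median of 0.51 against 0.00 over all tested genes. In that comparison HCN4F-TAC was higher without overlap for Cxcl9, Cxcl10, Cxcl14 and Cx3cl1, 4 of 7, against 11.3% of all tested genes, and lower for 0 of 7, against 11.0%. In Sham the genotypes overlapped for all 7, where 3.89% of tested genes were higher and 4.67% lower without overlap. For TAC against Sham in HCN4F, 1 of 7 was higher without overlap (Cx3cl1, against 7.95% of tested genes) and 0 of 7 lower (against 7.16%). In WT, 1 of 7 was higher (Cxcl1, against 19.2%) and 3 of 7 lower (Cxcl12, Cxcl14 and Cxcl16, against 20.0%). The comparisons share groups, so their values are not independent. For the interaction of genotype and surgery, 0 of the 7 and 0 of the 15292 tested genes passed the adjusted p-value in edgeR, whose smallest value was 0.168, and 1418 genes had an unadjusted p under 0.05. Among the 7, the edgeR interaction had an unadjusted p under 0.05 for Cxcl14 and Cxcl16, 2 genes.

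**Figure D4:**
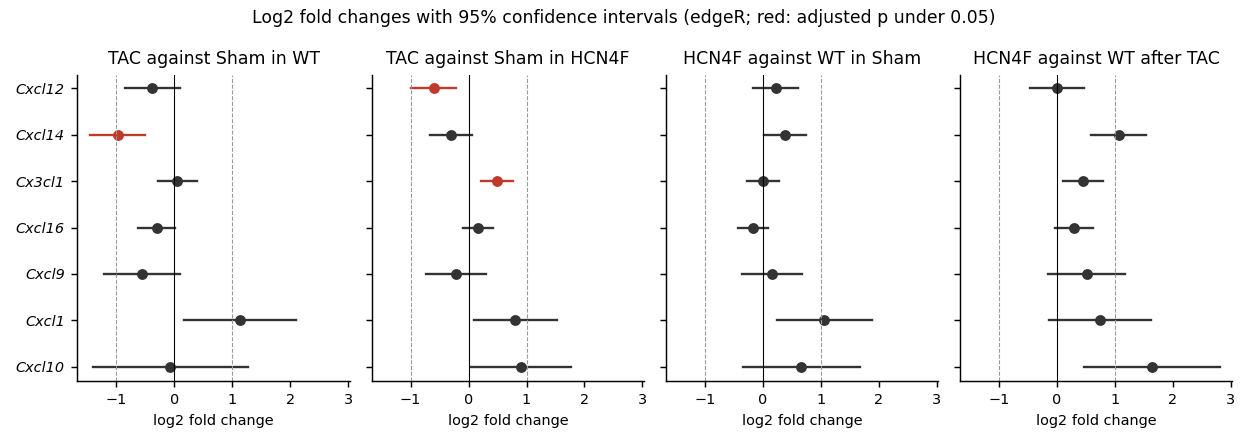
Log2 fold change of each chemokine transcript (points) with its 95% confidence interval (lines) in the 4 comparisons, per gene and unadjusted, from edgeR, with dashed lines at -1 and 1. The values with an adjusted p under 0.05 are red and are Cxcl14 in WT (-0.98), and Cxcl12 (-0.60) and Cx3cl1 (0.49) in HCN4F.

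For each chemokine the 3 genes with the most similar pattern were found among 12564 genes with a mean of at least 1 CPM, by Pearson r of log2 CPM over the 14 libraries. The libraries share 4 groups and the genes were picked from many, so these r values are descriptions. Cxcl10 was closest to Usp18 (r = 0.91), Irf7 (0.91) and Src (0.87), of which Usp18 and Irf7 are themselves interferon-induced. Cxcl9 was closest to Smarcd2 (0.88), Cd274 (0.87), which encodes the checkpoint ligand PD-L1, and Commd5 (0.86). Cxcl14 was closest to Ggh (0.92), Clec10a (0.90), a lectin of macrophages and dendritic cells, and Rilpl2 (0.86). Cx3cl1 was closest to Marcksl1 (0.90), Lcp1 (0.89), an actin-bundling protein of white blood cells, and Wisp2 (0.89). Cxcl1 was closest to Bdnf (0.91), Unc50 (0.86) and the immediate early gene Junb (0.86). Cxcl12 was closest to Adam23 (0.92), Phactr1 (0.90) and E330034L11Rik (0.90), and Cxcl16 to Dctn2 (0.88), Tmem176a (0.86) and Ppib (0.85). Among the 7 chemokines themselves, r ranged from -0.43 for Cxcl12 and Cx3cl1 to 0.75 for Cxcl10 and Cx3cl1.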

How the data were processed

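Left ventricular RNA of 14 mice was measured by mRNA sequencing on an Illumina platform. The authors deposited raw read counts per gene, without normalization. The submitters' processing notes name GRCm38, and the aligner, counter, annotation and use of strand are not given in the sources used here. Samples were grouped by their labels, and 2 further per-sample columns, whose names carry TAC and WT but match no labelled sample, were not used. Nothing used here says which cage or surgery day a mouse came from.

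Of 49315 genes, 15292 passed filterByExpr. Counts were scaled by TMM and fitted over all 14 libraries in edgeR 4.0.16 (R 4.3.3) by a robust quasi-likelihood fit with a mean per group. Benjamini-Hochberg adjustment ran over all tested genes. A call needed an adjusted p under 0.05 with a log2 fold change larger than 1 in size, and the interaction the adjusted p alone. CPM values carry no pseudocount, and log2 CPM used a prior count of 2. Depth was 22309914 to 35210939 counts, and the upper limit for a gene with 0 reads is 3 reads (0.0852 to 0.134 CPM), which covers counting error only. Exon lengths and positions came from GENCODE mouse release 21 on GRCm38, which held 99.3% of the gene IDs.

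All 7 chemokines are described. Other pathway genes were to be named where called in any of the 4 comparisons, and for each chemokine the 3 genes with the highest Pearson r at a mean CPM of at least 1. The 7 chemokines and the lists were chosen with earlier results of these data known. The fit was tested on simulated data. Alternatives were DESeq2 1.42.0 on all groups, both tools on only the groups compared, non-robust estimation, DESeq2 size factors, no filter or one at a mean of 1 CPM, a replicate block, the adjusted p alone and each replicate left out, which was added for single receptors, proteases and marker genes after the data were seen. Figures used matplotlib 3.10.9.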

Additional observations from a re-analysis of the deposited data

Results flagged for a closer look

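A library stood apart from the other 3 of its group in 3 of the 21 groups of 4 libraries tested (7 genes in 3 groups), where chance gives about 1 in 20. Cxcl9 in HCN4F-Sham replicate 1 was 2.07 CPM, against 4.32 to 4.56 CPM in the other 3 libraries. Cxcl12 in HCN4F-TAC replicate 2 was 104 CPM, against 162 to 172 CPM. Cxcl16 in HCN4F-TAC replicate 3 was 5.97 CPM, against 8.004 to 8.33 CPM.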

How the results depend on the processing

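Of 261 log2 fold changes of the 7 chemokines refitted under other settings, 252 kept their direction and their side of the call, 2 newly met the call and 7 changed sign. With 1 library left out, 279 of 294 kept both, 4 newly met the call and 11 changed sign. The number of the 7 genes called between the TAC groups went from 0 to 1 (Cxcl14) with DESeq2 on all groups and 1 with DESeq2 on the compared groups, and to 0 to 1 with 1 library left out. On the adjusted p alone it was 2 for TAC against Sham in HCN4F and 1 in WT. With the fold size also required and 1 library left out, it was 0 to 1 in both. The number of other pathway genes called was 1 between the TAC groups with DESeq2 on all or on the compared groups (Cx3cr1). In HCN4F it was 3 on the adjusted p alone. With the fold size also required and 1 library left out, it was 0 to 1 in HCN4F (Cxcr2, without HCN4F-TAC replicate 1). The cause of these changes was not tested. The changes of sign were in differences near 0. Cxcl12 between the TAC groups became -0.0091 with DESeq2 size factors, -0.015 without a filter, -0.0098 with DESeq2 on all groups, -0.0022 with edgeR and -0.0043 with DESeq2 on the compared groups, and -0.065 to 0.13 with 1 library left out. Without 1 library, Cx3cl1 was -0.065 to 0.075 between the Sham groups and -0.25 to 0.29 for TAC against Sham in WT, and Cxcl10 was -0.66 to 0.27 in WT. With the replicate number as a block, Cx3cl1 was -0.0013 between the Sham groups and -0.042 for TAC against Sham in WT, 0 of the 7 genes were called in any comparison, and the adjusted p of Cxcl12 in HCN4F was 0.0964 and that of Cxcl14 in WT 0.0976. Same-numbered libraries did not deviate together: 3 of 18 pairs correlated above 0.1 (r = -0.18 to 0.22), and a library correlated best with its own number in 10 of 36 cases. A mean CPM of at least 1 left Cxcl10 out, and DESeq2 gave it no adjusted p in WT. Without a filter the adjusted p was 0.138 for Cxcl12 in HCN4F and 0.0805 for Cxcl14 in WT. The level order was the same per kilobase of the longest transcript and without TMM. Depth limits Cxcl10 and Cxcl1 most, at 3 to 38 and 4 to 70 reads per library.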
